A study of Mus musculus with 3 samples.

Results

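Bone morphogenetic proteins (BMPs) are secreted growth factors that drive the formation of cartilage and bone. A BMP dimer brings together a type II receptor, such as the one encoded by Bmpr2, and a type I receptor, such as those of Bmpr1a and Bmpr1b, which then phosphorylate Smad proteins. Secreted antagonists, among them noggin, gremlins and the chordin family, bind the ligands outside the cell and keep them from the receptors, and growing cartilage makes ligands and antagonists alike. The 10 genes described here are the ligand genes Bmp2, Bmp4, Bmp6 and Bmp7, the receptor genes Bmpr1a, Bmpr1b and Bmpr2, and the antagonist genes Nog, Grem1 and Chrdl1. They were picked by gene symbol from the 44788 rows of the count table, and all 10 had a row.

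RNA-seq had been carried out on primary chondrocytes cultured from the knee cartilage of mice of strain C57BL/6. The cKO cells (2 libraries) had the genotype Col2a1-CreERT2;Kdm6bf/f, in which a tamoxifen-activated recombinase is driven by the promoter of the cartilage collagen gene Col2a1, and the control cells (1 library) were Kdm6bf/f, with the floxed alleles and no recombinase. Cells of both genotypes were given 4-hydroxytamoxifen at 1 µM for 48 h in F12 medium with 10% serum, so the controls also carry floxed alleles and received the drug. The sources used here give neither the age of the mice nor whether animals were pooled. Kdm6b encodes a histone H3 demethylase, and the design compares chondrocytes with and without the recombinase directed at it.

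The libraries held between 12489738 and 12636471 counts, and 15529 genes entered the test. Levels are given as CPM, counts scaled to library size. Kdm6b had 84.2 and 74.1 CPM in the cKO libraries and 103.9 CPM in the control, a difference that did not pass (adjusted p = 0.138 in edgeR), and since the sources used here do not name the floxed exons, gene-level counts need not show the deletion. The cKO libraries are not alike in sex-linked transcripts: cKO replicate 1 had 680 counts of the Y-linked gene Ddx3y and 2 of Xist, cKO replicate 2 had 0 and 10081, and the control had 732 and 1. Xist was called higher in cKO (adjusted p = 0.0107 in edgeR) though cKO replicate 1 was like the control, so a call can rest on 1 library. Of 6 chondrocyte markers, 5 fell in cKO and none rose, beside 1.90% of all genes tested called lower and 3.01% called higher. The 6 summed to 14110 and 13430 CPM in the cKO libraries, against 23720 CPM in the control. Most of that sum was Col2a1, with 12530 and 11980 CPM in the cKO libraries, against 20120 CPM in the control. Col2a1 was the marker that did not pass in edgeR (adjusted p = 0.283), though it passed in DESeq2 (adjusted p = 0.000685). Sox9, 1 of the 5 that fell in edgeR, did not pass in DESeq2 (adjusted p = 0.0677). Of 8 fibroblast and synovium markers, 7 were tested. In edgeR 2 rose (Thy1 and Prg4) and 1 fell (Col14a1), while 0 were called in DESeq2. Thy1 was at 446.5% of the control in cKO replicate 1 and at 180.6% in cKO replicate 2. The list summed to 687 and 569 CPM in the cKO libraries, against 475 CPM in the control, and Pi16 had 1 count at most in each library. Endothelial markers summed to 1.29 and 0.391 CPM in the cKO libraries, against 0.242 CPM in the control, with Cdh5, Emcn and Tie1 at 0 counts throughout. Leukocyte markers summed to 12.6 and 13.0 CPM in the cKO libraries, against 7.82 CPM in the control, with Itgam at 0 and Ptprc at 1 count at most. Csf1r had 33 and 28 counts in the cKO libraries, against 8 in the control, and Cd68 had 59 and 57, against 32. Both were at an unadjusted p under 0.05 in edgeR, and 0 of the 4 leukocyte markers tested passed. Of 7 osteoblast markers, 4 were tested and 1 fell (Ibsp) in edgeR, while 0 were called in DESeq2. Of 7 mural markers, 6 were tested and 0 passed in edgeR, DESeq2 or limma-voom, with 2 at an unadjusted p under 0.05 in edgeR. In such bulk samples, fewer cells of a type and less RNA per cell cannot be told apart.

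The 2 members that changed were antagonist genes. Nog and Chrdl1 were 2.12-fold and 2.15-fold lower in cKO chondrocytes, with log2 fold changes of -1.08 ± 0.27 and -1.11 ± 0.17 (SE), and Grem1 did not pass the test. None of the 4 ligands and none of the 3 receptors passed the test. Over the 10 members, 2 fell, 0 rose and 8 did not pass in edgeR's quasi-likelihood test, with 3 at an unadjusted p under 0.05. Of all 15529 genes tested, 4.91% were called, with 1.90% called lower and 3.01% called higher in cKO. In DESeq2, 1 member (Chrdl1) was called, where 2.02% of all genes were. Both cKO libraries lay above the control for 3 members and below it for 5, and they lay on one side of it for 74.0% of all genes. The median log2 fold change was -0.06 over the members and -0.002 over all genes tested. The counts of members called therefore rest on this pair of antagonist genes.

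**Figure D1:**
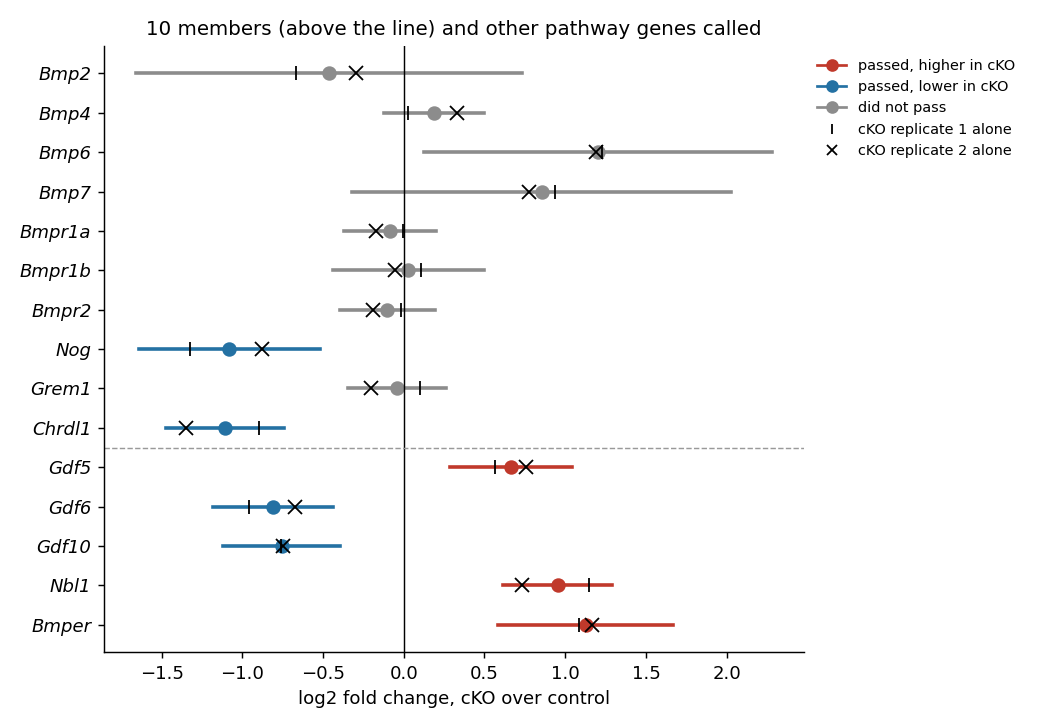
Log2 fold change of cKO over control (x axis) for the 10 members and, under the dashed line, the 5 other pathway genes that passed. Dots and bars give the edgeR estimate with its 95% interval, and black marks give each cKO library alone against the control. Nog and Chrdl1 lie left of 0 with both marks, and the receptor genes and Grem1 lie close to 0.

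To compare genes with one another, CPM were divided by exon length in kilobases (kb). Bmp4, Grem1 and Bmpr1a stood in that order at the top in each library. Bmp4 had 50.7 and 62.7 CPM per kb in the cKO libraries and 49.8 CPM per kb in the control. Grem1 had 39.5 and 31.9 CPM per kb in cKO and 36.8 CPM per kb in the control, and Bmpr1a had 24.4 and 21.7 CPM per kb in cKO and 24.4 CPM per kb in the control. In the cKO libraries the order went on with Bmpr2 (5.40 and 4.79 CPM per kb), Chrdl1 (4.65 and 3.40), Nog (3.08 and 4.20) and Bmpr1b (2.49 and 2.23). Chrdl1 and Nog did not differ there beyond their spread, since their ranges overlap. This rests on the length used: with the longest transcript in place of all exons, Chrdl1 had 7.66 and 5.61 CPM per kb in cKO, which overlaps Bmpr2 (7.53 and 6.68) and lies above Nog (3.08 and 4.20). In the control, Chrdl1 at 8.66 and Nog at 7.70 CPM per kb stood above Bmpr2 at 5.46 and Bmpr1b at 2.31 CPM per kb. With the longest transcript as length, Nog at 7.705 and Bmpr2 at 7.617 CPM per kb were nearly level in the control, a single library with no spread. The other member ligand genes lay below 1 CPM per kb in every library. They were Bmp6 (0.679 and 0.661 CPM per kb in cKO and 0.289 in the control), Bmp7 (0.499 and 0.447 in cKO and 0.261 in the control) and Bmp2 (0.271 and 0.352 in cKO and 0.431 in the control).

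**Figure D2:**
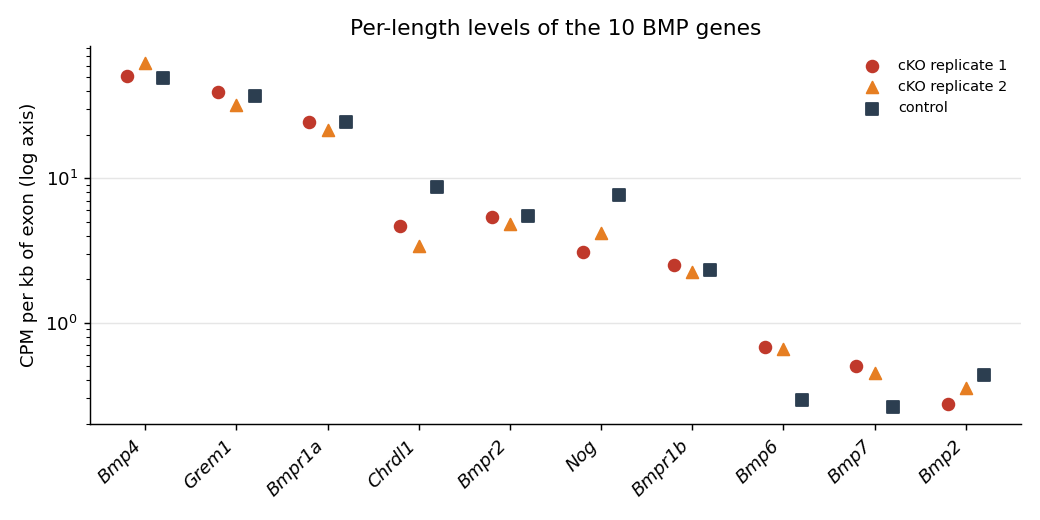
Level of each of the 10 members in CPM per kb of exon (y axis, log scale), ordered by the mean of the 3 libraries. Points are single libraries. Bmp4, Grem1 and Bmpr1a lie above 20 in every library, and Bmp6, Bmp7 and Bmp2 lie below 1.

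The receptor genes Bmpr1a and Bmpr1b encode related type I receptors, and Bmp4 and Grem1 are the most abundant ligand and antagonist among the members, so the promoters of these 4 genes are shown. Each sequence runs from 250 bases before to 50 bases after the start site in RefSeq (GRCm38.p6), 5′ to 3′ on the gene's own strand, with every CpG in capitals, and all 4 genes lie on the minus strand. They lie at chr14:34502497-34502796 (Bmpr1a), chr3:141982215-141982514 (the most upstream of 3 listed Bmpr1b start sites), chr14:46390620-46390919 (Bmp4) and chr2:113758599-113758898 (Grem1).
Bmpr1a: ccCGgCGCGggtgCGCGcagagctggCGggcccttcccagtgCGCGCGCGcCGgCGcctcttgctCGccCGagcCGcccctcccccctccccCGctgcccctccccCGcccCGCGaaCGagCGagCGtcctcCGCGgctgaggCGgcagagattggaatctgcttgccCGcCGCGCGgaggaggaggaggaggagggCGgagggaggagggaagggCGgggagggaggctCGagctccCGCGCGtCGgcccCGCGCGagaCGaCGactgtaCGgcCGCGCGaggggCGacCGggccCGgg
Bmpr1b: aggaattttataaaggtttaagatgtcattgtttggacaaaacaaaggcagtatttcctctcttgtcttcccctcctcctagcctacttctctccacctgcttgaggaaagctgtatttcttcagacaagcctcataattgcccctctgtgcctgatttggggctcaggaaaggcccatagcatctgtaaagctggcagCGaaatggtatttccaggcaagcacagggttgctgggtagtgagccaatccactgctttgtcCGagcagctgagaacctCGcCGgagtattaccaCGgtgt
Bmp4: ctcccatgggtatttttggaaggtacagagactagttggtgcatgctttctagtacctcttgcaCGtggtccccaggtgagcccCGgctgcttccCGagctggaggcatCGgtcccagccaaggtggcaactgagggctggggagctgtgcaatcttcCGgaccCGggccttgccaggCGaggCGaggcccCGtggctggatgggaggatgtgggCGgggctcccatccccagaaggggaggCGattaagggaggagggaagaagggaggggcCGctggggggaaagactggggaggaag
Grem1: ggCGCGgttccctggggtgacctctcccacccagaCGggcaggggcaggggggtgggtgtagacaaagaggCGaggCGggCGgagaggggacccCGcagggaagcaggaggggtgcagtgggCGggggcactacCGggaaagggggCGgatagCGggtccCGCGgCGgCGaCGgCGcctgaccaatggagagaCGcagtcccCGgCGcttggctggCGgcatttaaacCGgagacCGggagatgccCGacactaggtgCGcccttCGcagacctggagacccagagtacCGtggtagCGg

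The Bmpr1a promoter held 48 CpG in its 300 bases, and 1.22% of the 32851 promoters in the table held as many or more. The Bmpr1b start sites had 5, 6 and 6 CpG, a number that 62.0% and 56.4% of promoters reached. These sites lie inside the annotated Bmpr1b gene, and its upstream end at 142169425 is not among them. Bmp4 had 12 CpG (39.6% of promoters reached this) and Grem1 had 28 (14.2%), while Bmp6 had 27 and Bmpr2 had 23. The median over all promoters was 7. The hexamer GGCGCC, a GC-rich motif known from promoters that Smad1 and Smad5 bind, was searched for and reads the same on both strands. It occurs in the promoters of Bmpr1a, Bmpr2 and Grem1, which makes 3 of the 8 member promoters listed, beside 11.9% of all promoters, and it overlaps the counted CpG. The 8 promoters include 3 start sites of Bmpr1b. The promoters with the hexamer hold 48, 23 and 28 CpG where the median is 7, so the share over all promoters is not a like comparison. A match describes these letters and does not show binding. The table matched 6 of the 10 members, and Bmp2, Bmp7, Nog and Chrdl1 have no entry there.

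Among the 4 member ligand genes, Bmp4 (chromosome 14, 46383520 to 46390669, minus strand, GRCm38) carried nearly all of the signal. It encodes a ligand of early cartilage formation. Its counts were 1420 and 1803 in cKO and 1389 in the control, or 114 and 141 CPM against 112 CPM. Both cKO libraries lay above the control, cKO replicate 1 at 101.8% of it and cKO replicate 2 at 125.8%. The log2 fold change was 0.19 ± 0.15 (SE), with a 95% interval of -0.12 to 0.49 and an adjusted p of 0.615 in edgeR. Bmp4 made up 97.2% and 97.7% of the summed per-length level of the 4 member ligand genes in cKO and 98.1% in the control. Its exons share 89 bases with Gm15217 on the opposite strand, which had 0 counts, and the pseudogene Bmp4-ps also had 0.

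The other member ligand genes were near the limit of what this depth can show. Bmp6 (chromosome 13, 38345107 to 38500302, plus strand) encodes a ligand of hypertrophic cartilage and of iron control in the liver, and it had 33 and 33 counts in the cKO libraries, against 14 in the control. Both cKO libraries were above the control, at 2.65 and 2.58 CPM against 1.13 CPM. Its log2 fold change of 1.20 ± 0.52 (SE) had an unadjusted p of 0.0305 and an adjusted p of 0.248 in edgeR, so it did not pass. The fold of the summed counts was 2.32, with an exact 95% binomial interval of 1.29 to 4.47 that covers counting error only. Bmp6 exons share 224 bases with the far more abundant Txndc5 on the opposite strand (7652 and 8298 counts in the cKO libraries, against 8439 in the control), and since the use of strand in counting is not given, part of its counts is uncertain.

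Bmp7 (chromosome 2, 172868012 to 172940321, minus strand), known for its part in kidney and eye development, had 25 and 23 counts in the cKO libraries, against 13 in the control. Its log2 fold change was 0.85 ± 0.56 (SE, adjusted p = 0.523 in edgeR), with a counting interval of 0.967 to 3.65 for a fold of 1.81. Bmp2 (chromosome 2, 133552159 to 133562885, plus strand), a strong inducer of bone and cartilage, had 12 and 16 counts in the cKO libraries, against 19 in the control. Bmp2 was the ligand member with both cKO libraries below the control, at -0.46 ± 0.57 (SE) on the log2 scale (adjusted p = 0.784 in edgeR). Its 95% interval of -1.66 to 0.73 covers changes of more than 2-fold downwards, so a difference was not detectable at this depth.

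**Figure D3:**
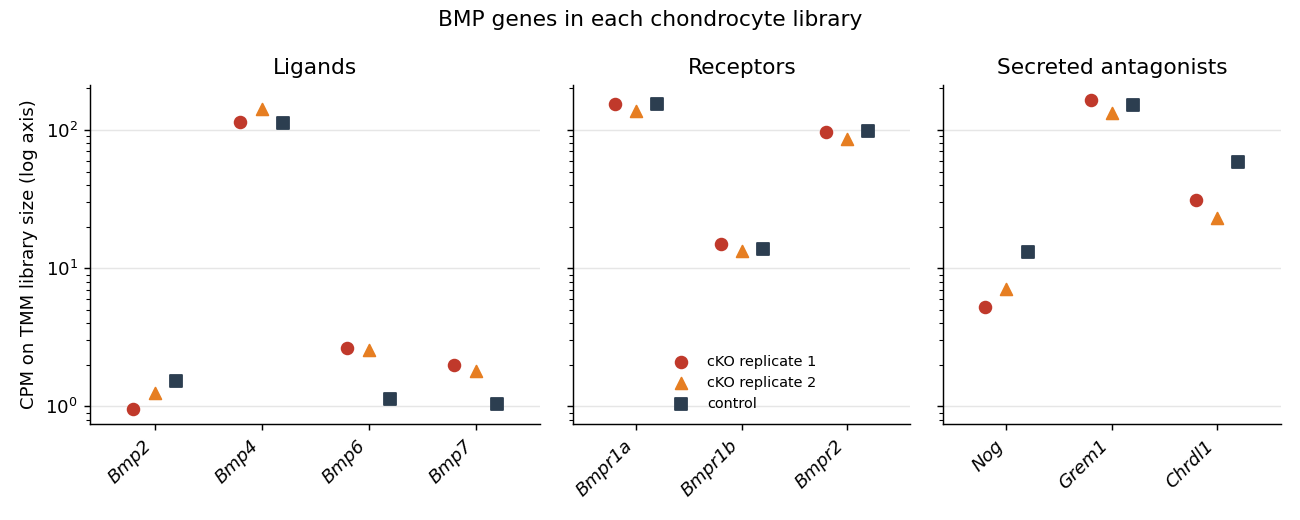
CPM of each member in each library (y axis, log scale), with ligands, receptors and antagonists in separate panels. Points are single libraries. Receptor points lie together, Bmp6 and Bmp7 lie higher in both cKO libraries at 1 to 3 CPM, and Nog and Chrdl1 lie lower in both.

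For the receptor genes, the genotypes differed by less than the test could call. Bmpr1a (chromosome 14, 34410734 to 34503341, minus strand), whose product is a type I receptor that acts in growth plate chondrocytes, had 1928 and 1764 counts in the cKO libraries, against 1924 in the control. Its log2 fold change was -0.08 ± 0.14 (SE), with a 95% interval of -0.37 to 0.20 and an adjusted p of 0.850 in edgeR. Bmpr2 (chromosome 1, 59763400 to 59879014, plus strand), the type II receptor, had 1209 and 1103 counts in the cKO libraries, against 1219 in the control. Its log2 fold change was -0.10 ± 0.14 (SE), with a 95% interval of -0.39 to 0.19 (adjusted p = 0.816 in edgeR). Both genes were close to the control in cKO replicate 1, at 99.8% and 98.8% of it, and lower in cKO replicate 2, at 88.9% and 87.7%.

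Bmpr1b (chromosome 3, 141837136 to 142169425, minus strand), a type I receptor known for its part in digit cartilage, had 185 and 170 counts in the cKO libraries, against 171 in the control. The control lay between the cKO libraries in CPM, and the log2 fold change was 0.03 ± 0.22 (SE), with a 95% interval of -0.44 to 0.49 (adjusted p = 0.977 in edgeR). The make-up of the receptor set was also alike. Of the summed per-length level of the 3 receptor genes, Bmpr1a held 75.55% and 75.56% in cKO and 75.85% in the control. Bmpr1b held 7.72% and 7.76% in cKO and 7.18% in the control. Exons of Bmpr1a share 290 bases with the antisense gene Gm17110, which has no row in the table.

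Nog (chromosome 11, 89300638 to 89302332, minus strand, 1 exon) encodes noggin, which binds BMP ligands tightly and covers their receptor-binding sites. It had 65 and 91 counts in the cKO libraries, against 162 in the control, or 5.22 and 7.11 CPM against 13.1 CPM. Both cKO libraries were well below the control, at 40.0% and 54.5% of its level. Nog fell by 1.08 ± 0.27 on the log2 scale (SE), with a 95% interval of -1.64 to -0.52 and an adjusted p of 0.0191 in edgeR. It did not pass in DESeq2 (adjusted p = 0.561), with total counts as scaling (0.146 in edgeR), with a prior of 5 or 3 degrees of freedom (0.234 and 0.498) or without the filter (0.560), and the 95% binomial interval of the fold from counting error alone was 0.377 to 0.593.

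Chrdl1 (chromosome X, 143285674 to 143394262, minus strand) encodes chordin-like 1, also called ventroptin or neuralin, an antagonist that binds Bmp4. It had 391 and 294 counts in the cKO libraries, against 726 in the control, or 31.4 and 23.0 CPM against 58.5 CPM. Both cKO libraries lay far under the control, at 53.7% and 39.3% of its level. Chrdl1 fell by 1.11 ± 0.17 on the log2 scale (SE), with a 95% interval of -1.47 to -0.74 and an adjusted p of 0.000224 in edgeR, and it passed in DESeq2 as well (adjusted p = 0.00868). The call was lost with the prior degrees of freedom lowered to 5 (adjusted p = 0.100 in edgeR) or 3 (0.365) and without the filter on low counts (0.560). The gene is X-linked and the libraries differ in sex-linked transcripts. In cKO replicate 1, which has Y-linked counts like the control, the level was 53.7% of the control, a value with no test, and the part of the difference in sex was not tested further.

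Grem1 (chromosome 2, 113746164 to 113758646, minus strand) encodes gremlin 1, an antagonist of Bmp2, Bmp4 and Bmp7 that is strong in articular cartilage. It had 2042 and 1695 counts in the cKO libraries, against 1895 in the control, or 164 and 132 CPM against 153 CPM. The control lay between the cKO libraries. Its log2 fold change was -0.04 ± 0.15 (SE), with a 95% interval of -0.35 to 0.26 (adjusted p = 0.937 in edgeR). Of the summed per-length level of the 3 member antagonists, Grem1 held 83.7% and 80.8% in cKO and 69.2% in the control. Nog held 6.52% and 10.6% in cKO and 14.5% in the control, and Chrdl1 held 9.83% and 8.60% in cKO and 16.3% in the control. The sum itself was 47.25 and 39.5 CPM per kb in cKO and 53.2 CPM per kb in the control. The falls of Nog and Chrdl1 stand beside the fall of 5 of 6 chondrocyte markers given above, and the part of the markers in these results was not tested.

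The other listed antagonist genes that passed lay on the opposite side to Nog and Chrdl1. In the list of 16 further antagonist genes, 11 were tested, of which 2 rose, 0 fell and 9 did not pass, with a median log2 fold change of 0.26 over the list, beside 3.01% of all genes tested called higher and 1.90% called lower. Nbl1, which encodes DAN, a relative of gremlin 1, had 2178 and 1682 counts in the cKO libraries, against 980 in the control. It rose by 0.95 ± 0.16 on the log2 scale (SE, adjusted p = 0.000531 in edgeR and 0.00179 in DESeq2), a call lost with a prior of 5 or 3 degrees of freedom (0.137 and 0.446) and without the filter (0.560). Bmper, the crossveinless 2 gene, whose product binds BMPs and chordin and can act for or against signalling, had 162 and 176 counts in the cKO libraries, against 76 in the control. It rose by 1.13 ± 0.26 (SE, adjusted p = 0.0110 in edgeR), but did not pass in DESeq2 (adjusted p = 0.284). Both genes were higher in each of the cKO libraries, the same libraries that gave their calls.

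On the per-length scale, Nbl1 had 86.0 and 64.6 CPM per kb in cKO and 38.85 CPM per kb in the control, so it stood above Grem1 in each library. Bmper had 2.69 and 2.85 CPM per kb in cKO, against 1.27 in the control. Of the antagonists that did not pass, Fstl1, the follistatin-like gene with 277 and 261 CPM per kb in cKO and 204 in the control, had 0.40 ± 0.17 (SE) as its log2 fold change and an adjusted p of 0.237 in edgeR. Fstl3 and Crim1 had log2 fold changes of 0.33 ± 0.17 and 0.26 ± 0.15 (SE). Sost, Cer1 and Vwc2l, named for this reason alone, had 0 counts in every library, which allows up to 3 counts in each.

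**Figure D4:**
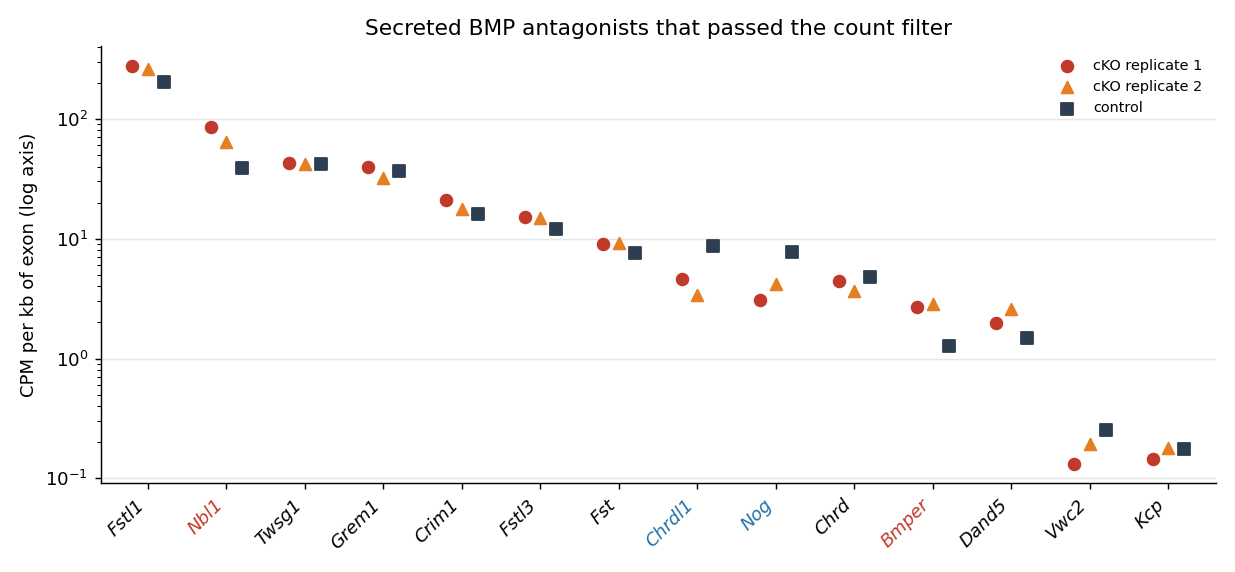
CPM per kb of exon (y axis, log scale) for the 3 member antagonists and the 11 further ones that passed the count filter, in each library. Points are single libraries, gene names in red mark genes that passed as higher in cKO and names in blue those that passed as lower. Nbl1 and Bmper lie higher in both cKO libraries, and Nog and Chrdl1 lie lower.

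Of 11 further ligand genes listed, 6 were tested, and 1 rose, 2 fell and 3 did not pass, beside 4.91% of all genes tested called in either direction. Gdf5, a joint-forming ligand, had 376 and 441 counts in the cKO libraries, against 253 in the control, and it rose by 0.66 ± 0.18 on the log2 scale (SE, adjusted p = 0.0370 in edgeR). Gdf6, its close relative in joint and skeletal patterning, had 244 and 305 counts in the cKO libraries, against 472 in the control. It fell by 0.81 ± 0.18 (SE, adjusted p = 0.00701 in edgeR). Gdf10, also named BMP3b, fell by 0.76 ± 0.17 (SE, adjusted p = 0.0102 in edgeR), with 259 and 268 counts in the cKO libraries, against 437 in the control. In DESeq2 none of these 3 passed (adjusted p = 0.541 for Gdf5, 0.251 for Gdf6 and 0.347 for Gdf10). Bmp5, a ligand of skeletal condensations, had 172 and 182 counts in the cKO libraries, against 263 in the control, with a log2 fold change of -0.60 ± 0.20 (SE) and an adjusted p of 0.113 in edgeR. Over all 13 listed ligand genes with counts, Bmp4 held 63.5% and 66.6% of the summed per-length level in cKO and 59.4% in the control.

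The lists of other pathway genes are short, and with 4.91% of all genes called, 0 calls in each is near the background and is no result about them. Of 10 further receptor and co-receptor genes, 9 were tested and 0 passed in edgeR, with 2 at an unadjusted p under 0.05 and 0 called in DESeq2 or limma-voom. The netrin and RGM receptor gene Neo1 had -0.46 ± 0.15 (SE) as its log2 fold change and an adjusted p of 0.0831 in edgeR, the type I receptor gene Acvrl1 had 0.74 ± 0.31 and the type II receptor gene Acvr2a had -0.34 ± 0.27. Of 6 proteases that process ligands or chordin, 5 were tested and 0 passed, with 1 at an unadjusted p under 0.05 and 0 in DESeq2 or limma-voom. The convertase genes Pcsk6 and Furin had log2 fold changes of -0.35 ± 0.13 and 0.13 ± 0.14 (SE), and Bmp1, which despite its name encodes a protease that cuts chordin, had 0.04 ± 0.14.

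The same holds for the signal transducers and target genes. Of 8 Smad and Smurf genes, 0 passed, with 2 at an unadjusted p under 0.05 and 0 in DESeq2 or limma-voom. The ubiquitin ligase gene Smurf1 had 0.42 ± 0.14 (SE) as its log2 fold change and an adjusted p of 0.110 in edgeR, the inhibitory Smad gene Smad7 had 0.40 ± 0.17 and the receptor-activated Smad gene Smad1 had -0.34 ± 0.17. Of 9 genes known to respond to BMP, 0 passed, with 1 at an unadjusted p under 0.05 and 0 in DESeq2 or limma-voom. Id3 and Id2, which encode inhibitors of DNA binding and are direct BMP targets, had log2 fold changes of -0.30 ± 0.14 and -0.18 ± 0.16 (SE). Atoh8, a transcription factor gene, had 0.17 ± 0.14. The 95% intervals ran from -0.585 to -0.011 for Id3, from -0.50 to 0.15 for Id2 and from -0.12 to 0.46 for Atoh8. A 2-fold change in either direction lies outside these intervals, which rest on 1 residual degree of freedom and 1 control library. Genes of the list with fewer counts had intervals as wide as -0.71 to 2.12, so the intervals give no result for the list. The median over the target list was -0.18 on the log2 scale, beside -0.002 over all genes tested.

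Nog and Chrdl1 lay below the control in both cKO libraries. Their calls came from these same libraries and both ratios share the 1 control, so this is no separate support. For 74.0% of all genes tested, both cKO libraries lay on one side of the control. The log2 CPM ratio of Nog to the control was -1.32 in cKO replicate 1 and -0.88 in cKO replicate 2, and that of Chrdl1 was -0.90 and -1.35, so neither library gave the lower value for both genes. For Grem1 the ratio was 0.10 and -0.21, and for Bmp4 it was 0.03 and 0.33. Over the 11339 genes whose mean CPM reached 5, the log2 difference had an SD of 0.331 between the cKO libraries. The difference to the control, the measure given here for each gene, had a wider SD of 0.569 in cKO replicate 1 and 0.562 in cKO replicate 2.

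**Figure D5:**
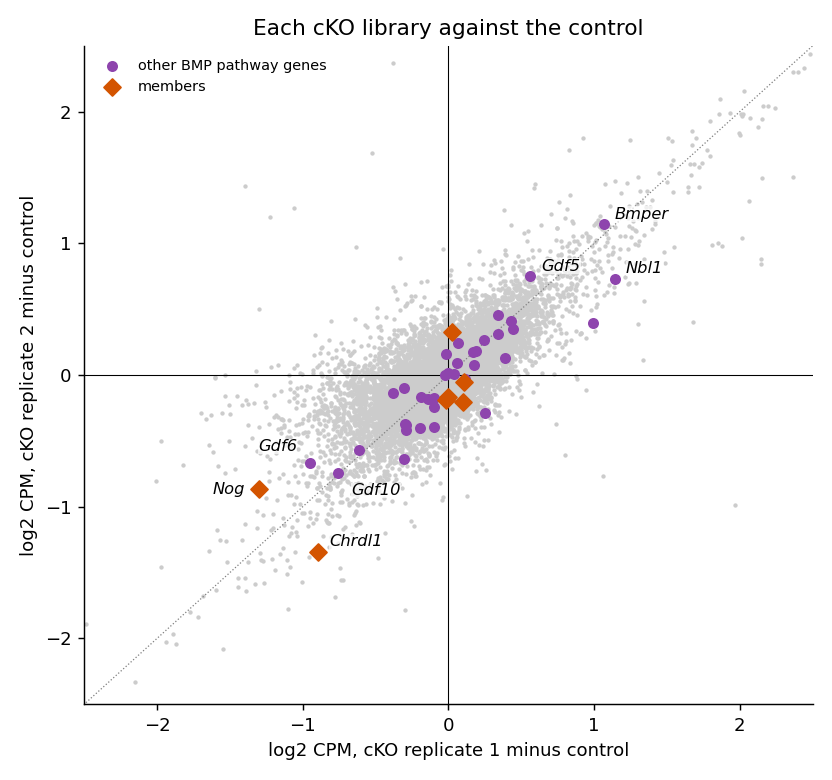
Log2 CPM of cKO replicate 1 minus control (x axis) and of cKO replicate 2 minus control (y axis), both sharing the 1 control library, computed with a prior count of 2. Grey points are genes whose mean CPM reached 5, of which 100 lie beyond the axis limits of 2.5. Nog and Chrdl1 lie in the lower left, Nbl1, Bmper and Gdf5 in the upper right, and the other members at that level near the centre.

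The genes whose pair of differences lay nearest to those of Nog and Chrdl1 were looked up among 10089 genes whose mean CPM reached 5, over the 3 libraries. The 5 nearest to Nog were Cyb5r2, Snhg12, Ptprq, Col9a2 and Epyc, at distances from 0.0815 to 0.204 on the log2 scale. Col9a2 encodes a chain of the cartilage collagen type IX, and Epyc encodes the cartilage proteoglycan epiphycan. The 5 nearest to Chrdl1 were Reps2, Col4a6, Omd, Matn4 and Adhfe1, at distances from 0.0381 to 0.147. Reps2 and Col4a6 are X-linked like Chrdl1, and Matn4 encodes the matrix protein matrilin 4. With 3 libraries, such nearness only says that the values were alike.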

How the data were processed

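The data are the counts of reads that the authors deposited, whole numbers with genes by symbol in rows and the 3 libraries in columns. Per the labels' protocols, RNA was taken up in Trizol, depleted of ribosomal RNA and made into Ion Proton libraries. The submitters' processing notes list the builds GRCm38 and GRCh37 with no role for either. The sources used here do not name the aligner, counter, annotation or use of strand. Gene positions and exon lengths come from GENCODE on GRCm38, and 30940 of the 44788 symbols matched exactly 1 gene there.

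Counts were tested with edgeR 4.0.16 (R 4.3.3): filterByExpr left 15529 genes, and TMM scaling and the quasi-likelihood F test followed, with p-values adjusted by Benjamini-Hochberg and called at 0.05. Only the cKO pair gives the fit its 1 residual degree of freedom, the control being taken to vary as that pair does, and the result leans on a prior with 19.9 degrees of freedom. The standard error (SE) is the absolute log2 fold change over the root of F. CPM use the TMM-scaled total of the genes tested. The labels do not say that the cKO libraries come from separate cultures or animals, but they are not copies of 1 library, as their counts differed by more than counting noise (chi-square of 9.06 per gene, which separate preparations can also give) and their sex-linked transcripts differ, and p-values measure only the spread between them. DESeq2 1.42.0, limma-voom (limma 3.58.1), other scalings, filters and priors were run as alternatives. The fit was also run on simulated counts, drawn with a spread between genes like the prior of the main fit. That run cannot tell whether calls lost with lower priors hold, and its outcome is not given here. One gene of the antagonist list is not reported here and is left out of its counts. The members and lists were chosen with earlier results of these data known. Named genes are all members, the pathway genes that passed and up to 3 more per list with the smallest p whose mean CPM reached 5, and the 5 nearest genes by pattern to each member called, leaving out provisional symbols and pseudogenes.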

Additional observations from a re-analysis of the deposited data

How the results depend on the processing

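The directions of the log2 fold changes of the 10 members and of the 5 other pathway genes called kept their sign under each of the 8 alternatives with a test, but the calls did not all hold. The alternatives use the same 3 libraries and the lower priors leave the log2 fold change as it is, so a kept sign is no separate support. Nog kept its call in 3 of 8 alternatives (adjusted p from 0.0109 to 0.561) and Chrdl1 in 5 of 8 (4.81e-05 to 0.560). Nbl1 kept its call in 5 of 8, Bmper, Gdf6 and Gdf10 in 3 and Gdf5 in 2. With total counts in place of TMM, 227 genes were called higher and 89 lower, 1 member (Chrdl1) lower, and 1 other pathway gene higher and 0 lower. With DESeq2 these numbers were 225, 82, 1, 1 and 0. With a prior of 5 degrees of freedom they were 151, 42, 0, 0 and 0, and with a prior of 3 they were 83, 4, 0, 0 and 0. Without the filter on low counts, 0 genes were called in either direction, with 24051 genes tested and an estimated prior of 2.03 degrees of freedom. The cause of these changes in number was not tested. Median-of-ratios scaling and limma-voom kept the numbers within 1.5 times, as did the older quasi-likelihood method, which was chosen after seeing the data, as were the alternatives for the other pathway genes. Leaving out either cKO library leaves no residual degrees of freedom, so there are only ratios with no test and no counts of calls, and those ratios differ in sign between the libraries for Grem1 (0.10 and -0.21) and Bmpr1b (0.11 and -0.05). With the longest transcript as length, the order of the members by their mean over the 3 libraries was the same, but in cKO replicate 1 Chrdl1 then stood above Bmpr2. No paired analysis was possible because the control is 1 library with no replicate number. Depth limits Bmp2, Bmp6 and Bmp7, with 33 counts or fewer per library.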
